A study of Mus musculus with 6 samples.

Results

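The genes described here encode the proteins with which a presynaptic terminal stores, releases and recycles synaptic vesicles. They are a hand-chosen list of 43 gene symbols, out of 47086 loci in the deposited expression table, and a symbol with several loci was taken at the locus with the highest mean level. The list was drawn up from function and not from a measured difference, but with earlier results of these data known. It was read in 3 wild type (WT) and 3 Fmr1 knockout (KO) libraries made from the total RNA of primary hippocampal cultures at 14 days in vitro, grown from newborn mice of the C57BL/6 background. Fmr1 encodes FMRP, an RNA-binding protein whose loss causes fragile X syndrome, and no group received a treatment. The mice of the study were bred as male KO animals and WT littermates, while the sex of the pups, the litter of each library and the design of the knockout allele remain unstated in the sources used here. Nothing ties a library to a separate culture or animal, so the p-values given here measure the spread between these libraries, which may be technical. The unit is FPKM, the fragments assigned to a gene scaled by the length of its transcript and by the size of the library, and the number of reads behind a value is unknown.

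Synaptic vesicles are filled with transmitter, docked and primed at the active zone, and fuse when calcium enters the terminal. Fusion is driven by SNARE proteins, with synaptobrevin on the vesicle and syntaxin and SNAP-25 on the plasma membrane, while synaptotagmins sense the calcium and complexins clamp and assist the complex. NSF and its SNAP partners then take the used complexes apart, and dynamin, amphiphysin, synaptojanin and clathrin adaptors retrieve the membrane. In hippocampal neurons many of these genes are strongly transcribed, and FMRP is best known for binding brain mRNAs, those of several presynaptic proteins included.

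For Fmr1, the WT libraries read 19.0, 19.5 and 19.7 FPKM and the Fmr1 KO libraries 23.1, 21.8 and 18.5, with overlap. A value for the whole gene cannot tell a working from a broken transcript, and it therefore leaves the genotype labels unchecked; all directions below depend on them. The 13195 loci that reached a mean of 1 FPKM in WT or Fmr1 KO entered a limma fit of log2(FPKM + 0.1), and p-values were adjusted by the Benjamini-Hochberg method over all of them. At low levels the added 0.1 shrinks a log2 change. Pearson's r between libraries was 0.962 to 0.978 across these loci, which are not independent replicates. The cultures were mixed: summed over marker lists, FPKM was 1037 to 1180 for 8 neuronal genes, 1397 to 1661 for 8 astrocyte genes and 346 to 439 for 8 genes of the oligodendrocyte lineage, whereas the 8 microglia markers summed to 5.24 to 7.37 in WT against 1.06 to 3.05 in Fmr1 KO, with Aif1 at 0 throughout.

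Of the 43 genes, 41 passed the minimum and were tested. No member passed an adjusted p of 0.05, against 0.265% of all tested loci in either direction, and the lowest adjusted p was 0.0753, for Synpr. At an unadjusted p below 0.05 in limma, 4 members (9.76%) were higher in Fmr1 KO, where 6.99% of all tested loci were, and 6 members (14.6%) were lower, where 7.77% of all tested loci were. The counts were 2 to 5 higher and 4 to 8 lower with each library left out in turn, and the smallest count of each was reached without Fmr1 KO replicate 2. The 3 Fmr1 KO libraries all lay above the 3 WT libraries for 5 tested members (12.2%), against 10.8% of all tested loci, and all lay below them for 8 (19.5%), against 10.3%. The median log2 change of the 41 members was 0.00, with 21 above 0 and 20 below, and that of all tested loci was also 0.00. The separated members lay on both sides of WT. In a bulk sample, fewer cells of a type and less RNA per cell cannot be told apart, which holds for every difference given here.

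**Figure D1:**
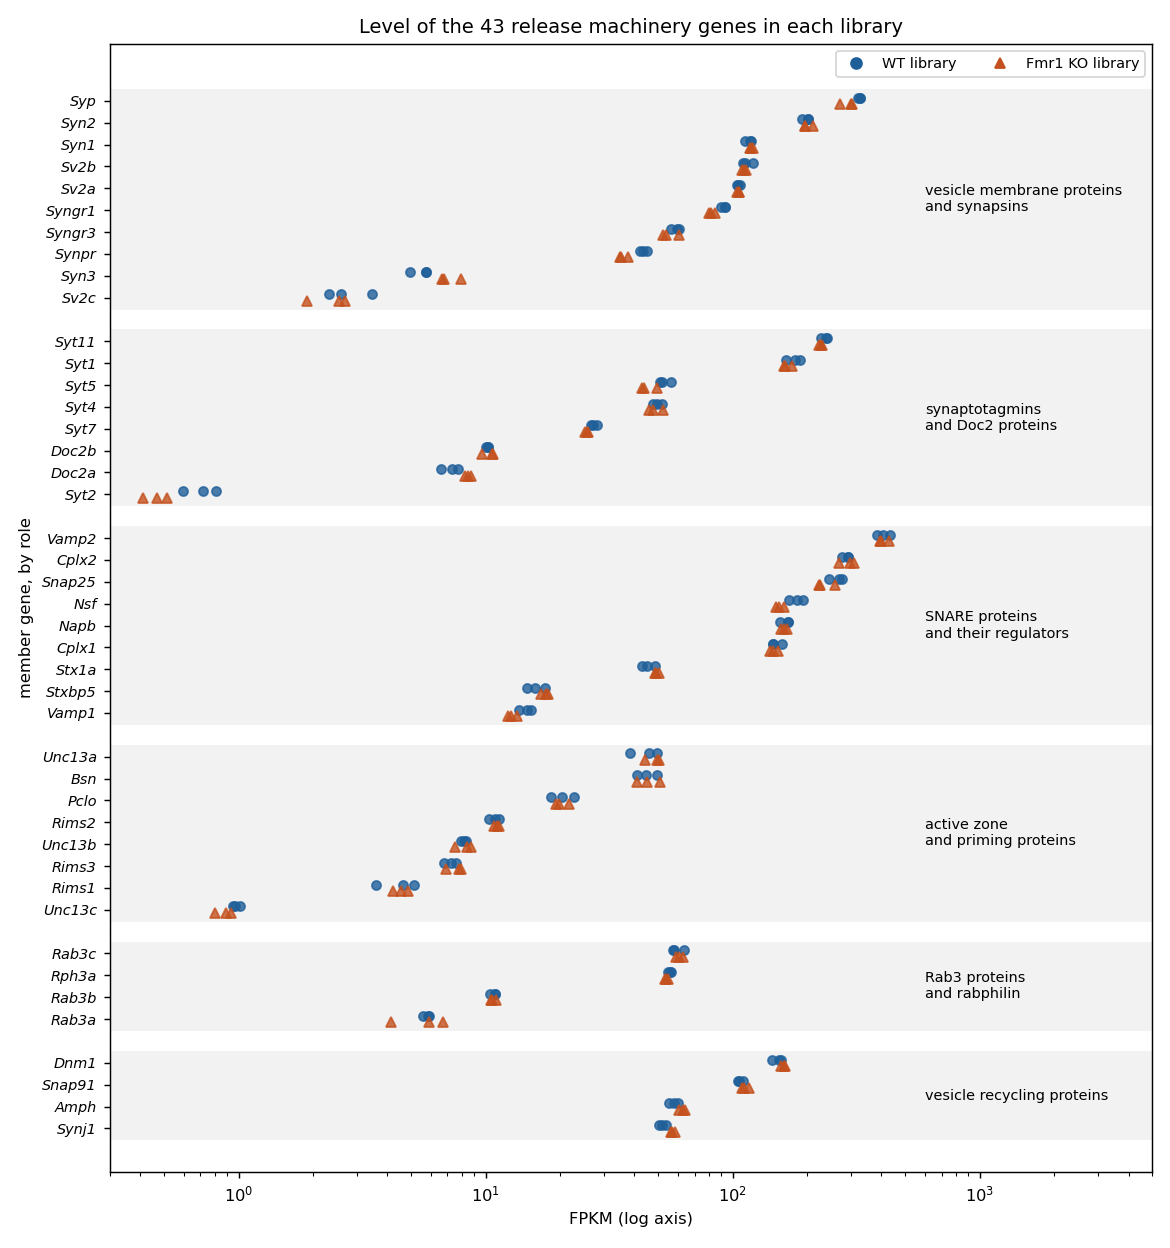
FPKM (x axis, logarithmic) of each of the 43 genes (y axis, grouped by role and ordered by mean level) in the 3 WT libraries (circles) and the 3 Fmr1 KO libraries (triangles). Levels span from 0.411 FPKM for Syt2 to 432 for Vamp2, and for most genes the symbols of the genotypes overlap.

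In each role a few genes carried most of the RNA. Vamp2, which encodes synaptobrevin 2, had the highest level of the list, with 432, 405 and 384 FPKM in WT against 430, 396 and 397 in Fmr1 KO. Its log2 change was 0.00, with a 95% interval of -0.13 to 0.13. The next levels were those of Syp (synaptophysin, a tetraspan protein of the vesicle membrane), Cplx2 (complexin 2), Snap25, Syt11 (a synaptotagmin that does not bind calcium) and Syn2 (synapsin II, which tethers vesicles in the reserve pool). Syp is described with its family. Cplx2 had 293, 292 and 277 FPKM in WT against 297, 270 and 311 in Fmr1 KO, a range that holds the WT values entirely. Syt11 had 240, 228 and 237 in WT against 229, 224 and 227, and Syn2 had 202, 202 and 191 against 212, 196 and 196. Neighbours in this order overlapped: the libraries of Syp and Cplx2, of Cplx2 and Snap25, and of Snap25 and Syt11 shared part of their ranges, while those of Syt11 and Syn2 did not.

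Synaptophysin, synaptoporin and the synaptogyrins are tetraspan proteins of the vesicle membrane. Of the 4 listed genes of this kind, 3 were lower in every Fmr1 KO library than in any WT library, against 10.3% of all tested loci. Synpr (synaptoporin, typical of mossy fibre and some interneuron terminals; chromosome 14, 13284780 to 13615469, GRCm38) had 45.1, 43.4 and 42.1 FPKM in WT against 37.8, 34.9 and 35.2 in Fmr1 KO. Its mean was 43.6 ± 1.51 in WT against 35.9 ± 1.59 in Fmr1 KO (SD, n = 3 each), or 82.5% of WT. Its log2 change was -0.28 (standard error 0.05, limma adjusted p = 0.0753 by the Benjamini-Hochberg method). This adjusted p was between 0.0449 and 0.275 over all alternative settings, and it was below 0.05 only where the trend of each library with transcript length was removed, a setting chosen after seeing the data. Synpr had the lowest p of the list.

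Syngr1 (synaptogyrin 1; chromosome 15, 80091334 to 80119501) had 93.1, 93.3 and 89.4 FPKM in WT against 84.4, 80.2 and 81.6 in Fmr1 KO, a log2 change of -0.16 (standard error 0.04, limma adjusted p = 0.162). Syp (chromosome X, 7638580 to 7653256) had 327, 327 and 320 in WT against 305, 271 and 301 in Fmr1 KO, a log2 change of -0.15 (standard error 0.05, limma adjusted p = 0.253). Its difference leaned on Fmr1 KO replicate 2, the lowest library, and without that library the log2 change was -0.10 and the unadjusted p from limma 0.097. Syngr3, the other neuronal synaptogyrin, had a log2 change of -0.09 (95% interval -0.24 to 0.06) with overlapping libraries. All 4 kept a value below 0 under each of 16 alternative settings, most of which could not reverse the 3 without overlap. Within the summed FPKM of these 4 genes, a share that no scaling of a library can move, Synpr took 8.29 to 8.59% in WT against 7.46 to 7.95% in Fmr1 KO. The shares of Syp (62.2 to 63.0% against 61.9 to 63.9%) and Syngr1 (17.6 to 17.8% against 17.3 to 18.3%) overlapped. Syp makes up most of this sum, so its own share can hardly move. The other shares are set mainly against Syp, which was itself lower. Of the related genes outside the list, Syngr2 and Sypl had log2 changes of -0.29 and -0.14 with overlapping libraries, and Sypl2 had 0.06.

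The stretches before the gene starts of Synpr and Syngr1 are shown beside those of Nsf, another lower member, and Dnm1, a higher one, because the listed tetraspan genes all had log2 changes below 0 and the listed recycling genes all above 0. RefSeq promoter windows (GRCm38.p6) matched 33 of the 43 members, and each was read over the 250 bases before the outermost start in that table, although only 6 of the 33 windows lay wholly outside the RefSeq gene and the GENCODE exons. The letters printed are the longest run of the window outside both, 5′ to 3′ on the strand of the gene, with capitals for GGGCGG (the GC box) or for the NRF1 motif, whose match in Nsf is the example, on either strand. The coordinates are chr14:13284639-13284779 on the plus strand for Synpr, chr15:80091084-80091333 on the plus strand for Syngr1, chr11:103954057-103954306 on the minus strand for Nsf and chr2:32353350-32353579 on the minus strand for Dnm1.
Synpr: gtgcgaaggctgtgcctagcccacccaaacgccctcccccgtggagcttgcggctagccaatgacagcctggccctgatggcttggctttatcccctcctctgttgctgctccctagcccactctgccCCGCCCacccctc
Syngr1: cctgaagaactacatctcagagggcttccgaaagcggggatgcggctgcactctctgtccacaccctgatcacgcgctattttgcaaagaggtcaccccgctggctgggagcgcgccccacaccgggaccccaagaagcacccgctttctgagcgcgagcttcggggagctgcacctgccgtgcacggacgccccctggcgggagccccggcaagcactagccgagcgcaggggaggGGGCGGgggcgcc
Nsf: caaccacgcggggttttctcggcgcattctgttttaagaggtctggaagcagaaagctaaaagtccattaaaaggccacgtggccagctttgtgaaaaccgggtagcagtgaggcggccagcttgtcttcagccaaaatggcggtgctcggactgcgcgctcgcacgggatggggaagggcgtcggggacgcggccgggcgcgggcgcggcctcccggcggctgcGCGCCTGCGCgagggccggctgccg
Dnm1: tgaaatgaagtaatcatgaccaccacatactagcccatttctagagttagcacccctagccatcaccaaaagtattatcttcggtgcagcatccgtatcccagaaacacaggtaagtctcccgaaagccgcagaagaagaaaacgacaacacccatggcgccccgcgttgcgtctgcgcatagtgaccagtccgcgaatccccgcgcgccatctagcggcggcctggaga
GGGCGG occurred in 23 of the 33 member windows (69.7%), in 33.0% of 27025 windows of all genes and in 61.0% of 9767 windows of genes tested here. The NRF1 motif occurred in 5 of 33 (15.2%), in 3.87% of all and in 8.60% of tested genes, and both overlapped once, in Pclo. Synpr, Syngr1 and Syp each held at least 1 GC box in their full windows, and so did Snap91, with 2, while Nsf, Dnm1, Amph and Synj1 held none. The windows of Amph and Synj1 lie mostly or wholly inside the RefSeq gene. In the window of Syp, 109 bases lie in GENCODE exons, and the 141 bases outside them held 0 of its 2 GC boxes. Syngr3, the other listed tetraspan gene, had no matched window. Whether these letters go with the direction of a gene was not tested. TATAAA was found in 2 of 33 windows (6.06%, against 12.98% of all and 5.52% of tested genes), TGACGTCA in 1 (3.03%, against 1.60% and 2.91%) and CCAAT in 7 (21.2%, against 34.5% and 36.9%), each on both strands. A match is a description of the letters, and a window without one says only that those letters are not in it.

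Among the synapsins, Syn1 and Syn2 lay close to WT, with log2 changes of 0.04 (95% interval -0.06 to 0.13) and 0.02 (-0.09 to 0.13). Syn3 (synapsin III, the form most linked to developing neurons; chromosome 10, 86048746 to 86498926) had 4.92, 5.74 and 5.75 FPKM in WT against 6.75, 6.64 and 7.95 in Fmr1 KO. Every Fmr1 KO library lay above every WT library, at 130% of the WT mean, with a log2 change of 0.37 (standard error 0.10, limma adjusted p = 0.153). Syn3 had the largest log2 change of the 41 tested members and the lowest level of the synapsins: its share of synapsin FPKM was 1.51 to 1.86% in WT against 1.99 to 2.47% in Fmr1 KO. Timp3 and Fbxo7 on the opposite strand overlap Syn3, and whether reads were counted by strand remains unstated. Timp3 (an inhibitor of matrix metalloproteases) had 26.7 ± 2.10 FPKM in WT against 27.4 ± 1.26 in Fmr1 KO (SD, n = 3 each), and Fbxo7 had 11.1 ± 0.351 and 10.5 ± 0.336.

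The SV2 glycoproteins, which act in vesicle priming and are receptors of botulinum toxins, showed no separation. Sv2a, the target of the antiepileptic drug levetiracetam, had a log2 change of 0.01 (95% interval -0.09 to 0.10) and Sv2b one of -0.04 (-0.15 to 0.07). Sv2c, at a mean of 2.79 FPKM in WT against 2.37 in Fmr1 KO, had -0.22, with an interval of -0.63 to 0.19 that does not settle its direction.

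**Figure D2:**
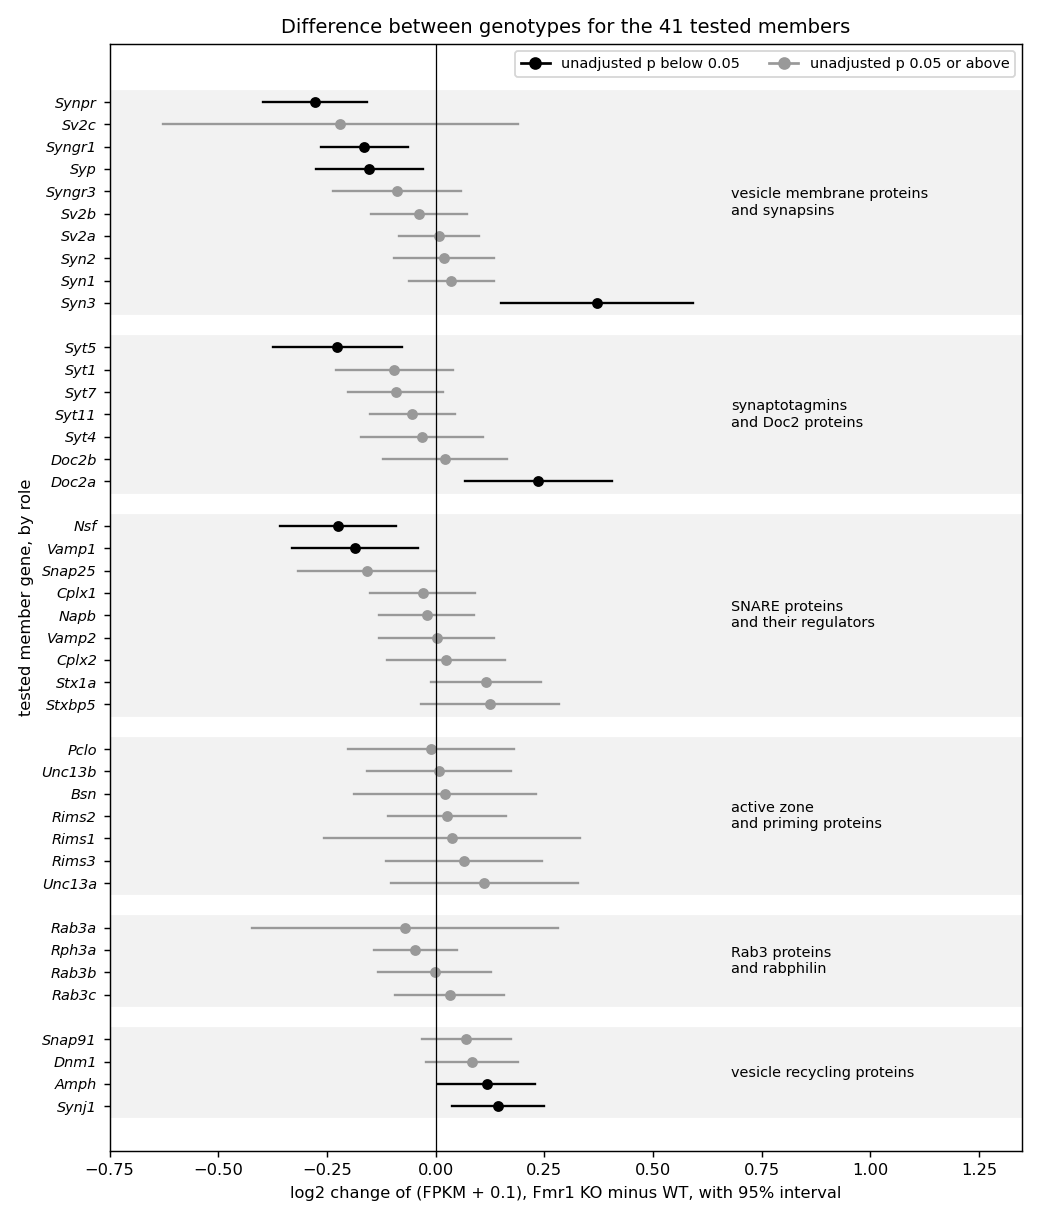
Log2 change of FPKM + 0.1 (x axis, Fmr1 KO minus WT, with 95% interval) for the 41 tested genes (y axis, by role). Black marks an unadjusted p below 0.05 in limma: Synpr, Syngr1, Syp, Syt5, Nsf and Vamp1 lie left of 0, and Syn3, Doc2a, Amph and Synj1 lie right of 0, and the active zone genes all have intervals that include 0.

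The 5 tested synaptotagmins had log2 changes below 0, where 6379 of 13195 tested loci did, and the Doc2 genes had values above 0. The sign of Syt4 and of Doc2b changed under 1 alternative setting each. Syt1, the fast sensor of transmitter release in these neurons, had 165, 188 and 179 FPKM in WT against 174, 163 and 161 in Fmr1 KO, a log2 change of -0.09 (95% interval -0.23 to 0.04). Syt5 (chromosome 7, 4539765 to 4547541), linked to dense core vesicles, had 56.1, 51.9 and 50.7 in WT against 49.1, 43.8 and 42.9 in Fmr1 KO. All 3 Fmr1 KO libraries of Syt5 were below all 3 WT libraries, with a log2 change of -0.23 (standard error 0.07, limma adjusted p = 0.185). Syt7, a slow sensor of asynchronous release and facilitation, had 27.1, 28.2 and 26.7 in WT against 25.9, 25.7 and 25.2 in Fmr1 KO, also without overlap, at a log2 change of -0.09 and an unadjusted p of 0.0908 in limma. Syt4 had -0.03 and Syt11 -0.05, both with overlapping libraries.

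Doc2a and Doc2b encode high-affinity calcium sensors of spontaneous and asynchronous release. Doc2a (chromosome 7, 126846983 to 126852705) had 7.70, 7.28 and 6.58 FPKM in WT against 8.50, 8.24 and 8.68 in Fmr1 KO, so that each Fmr1 KO library was higher, at a log2 change of 0.24 (standard error 0.07, limma adjusted p = 0.212). Doc2b lay between 9.65 and 10.7 in all libraries, with a log2 change of 0.02. Doc2a made up 39.2 to 43.5% of the summed FPKM of this pair in WT against 43.5 to 46.8% in Fmr1 KO, ranges that adjoin but do not overlap (43.45 against 43.52 at their ends). Doc2a overlaps Ino80e on the other strand, which had 11.9 ± 2.22 FPKM in WT against 11.5 ± 0.426 in Fmr1 KO (SD, n = 3 each). Syt2, the main fast sensor of hindbrain synapses and of some interneurons, was below the minimum and not tested: it had 0.717, 0.596 and 0.813 FPKM in WT against 0.515, 0.411 and 0.465 in Fmr1 KO. Without a minimum on FPKM its log2 change was -0.52 with a limma adjusted p of 0.490.

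Of the SNARE proteins and their regulators, Nsf stood furthest from WT. Nsf (the ATPase that disassembles SNARE complexes; chromosome 11, 103821782 to 103954056) had 182, 192 and 169 FPKM in WT against 162, 149 and 154 in Fmr1 KO. No libraries overlapped, at 85.5% of the WT mean and a log2 change of -0.22 (standard error 0.06, limma adjusted p = 0.153). For its partner Napb, beta-SNAP, the log2 change was -0.02, with an interval of -0.13 to 0.09; the difference between both genes was not tested. Vamp1, the synaptobrevin of fewer neurons, had 15.2, 14.7 and 13.7 in WT against 13.4, 12.6 and 12.3 in Fmr1 KO, a log2 change of -0.19 (standard error 0.06, limma adjusted p = 0.243). Vamp1 was 3.41 to 3.49% of the summed FPKM of both synaptobrevins in WT against 2.99 to 3.09% in Fmr1 KO. Its unadjusted p was 0.0527 without WT replicate 1, 0.0526 without Fmr1 KO replicate 2 and 0.0693 without Fmr1 KO replicate 3 in limma.

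Snap25 lay just outside the threshold. It had 277, 269 and 245 FPKM in WT against 259, 226 and 224 in Fmr1 KO, with 1 Fmr1 KO library inside the WT range and a log2 change of -0.16 (95% interval -0.32 to 0.00). Stx1a, the syntaxin of the plasma membrane, had a log2 change of 0.12 (-0.01 to 0.24). Stxbp5 (tomosyn, an inhibitor of SNARE assembly) also had 0.12 (-0.03 to 0.28), and the complexins Cplx1 and Cplx2 had -0.03 and 0.02. The core fusion genes thus did not lie on the same side.

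The active zone and priming genes showed no separation at all among those tested. Unc13a (Munc13-1, which opens syntaxin and primes vesicles) had the highest level of the 8, with 38.3, 49.5 and 45.8 FPKM in WT against 44.1, 50.4 and 49.5 in Fmr1 KO. The 7 tested genes had log2 changes from -0.01 for Pclo (piccolo) to 0.11 for Unc13a, with a median of 0.03. Bsn (bassoon, a giant scaffold protein) had 0.02 (95% interval -0.19 to 0.23), Rims2 (a RIM, which ties vesicles to calcium channels) had 0.03 (-0.11 to 0.16) and Unc13b had 0.01 (-0.16 to 0.17). The intervals of Bsn and Unc13b are wide enough to hold differences as large as those of Syp or Synj1, and the sign of Bsn, Pclo, Rims1, Rims2 and Unc13b changed under 1 to 6 alternative settings each. Unc13c, the form typical of cerebellar granule cells, was below the minimum, with 0.949, 1.01 and 0.962 FPKM in WT against 0.887, 0.801 and 0.927 in Fmr1 KO.

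The width of these intervals went with a pattern across libraries. WT replicate 1 was the lowest WT library for 8 of the 8 active zone genes, and Fmr1 KO replicate 1 the lowest of its genotype for 6 of 8. Their transcripts are long, and among the 13 tested members with a transcript of 5000 bases or more, WT replicate 1 was the lowest WT library for 10, against 6 of the 28 shorter ones. Over the 41 members, the deviation of a library from its genotype mean had a Pearson's r with log10 transcript length of -0.67 in WT replicate 1, 0.61 in WT replicate 2 and 0.33 in WT replicate 3, and of -0.37, 0.15 and 0.45 in Fmr1 KO replicates 1, 2 and 3. These values describe genes that share a library and are not independent. Over 12847 loci with a known length the same r was weaker, -0.17 in WT replicate 1 and 0.18 in WT replicate 2. When the trend of each library with length over all these loci was removed, the median log2 change of the members moved to -0.02. That trend is weaker than the one among the members. The part of their own pattern in the differences between genotypes was therefore not tested.

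**Figure D3:**
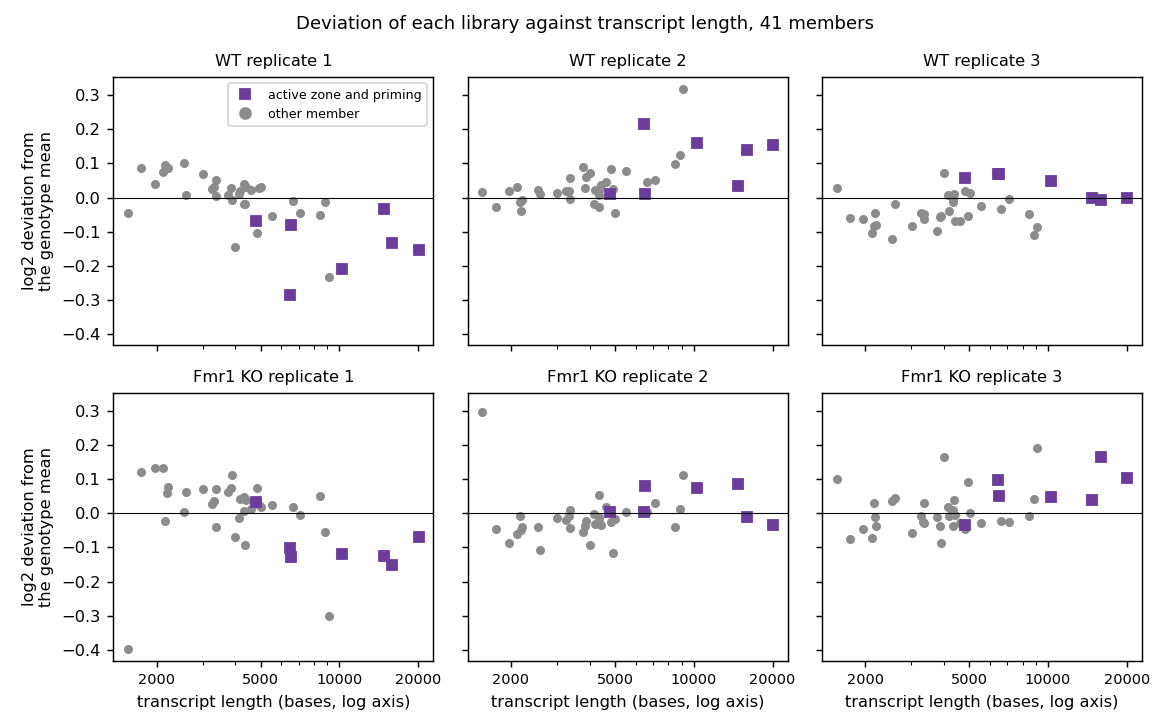
Deviation of each library from the mean of its genotype (y axis, log2) against transcript length in bases (x axis, logarithmic) for the 41 tested members, with active zone and priming genes as squares. The squares all lie below 0 in WT replicate 1, mostly below 0 in Fmr1 KO replicate 1 and all above 0 in WT replicate 2.

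Rab3 proteins are the small GTPases of the vesicle surface, and rabphilin is a Rab3 effector. Rab3c led the group, with 57.5, 63.7 and 57.6 FPKM in WT against 63.0, 59.2 and 60.5 in Fmr1 KO, and Rab3b had a log2 change of 0.00 (95% interval -0.13 to 0.13). Rph3a, which encodes rabphilin, was slightly lower in each Fmr1 KO library, with 56.0, 54.9 and 55.9 in WT against 53.3, 53.7 and 54.5 in Fmr1 KO. Its log2 change of -0.05 had an unadjusted p of 0.297 in limma.

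Rab3a and Rims1, which encode the main Rab3 of brain and the RIM that gave the family its name, could not be read at full level. Both are listed at 0 in all 6 libraries at their chromosomal loci (Rab3a on chromosome 8, 70754679 to 70760921; Rims1 on chromosome 1, 22288422 to 22805724). The values used here, 4.14 to 6.74 FPKM for Rab3a and 3.60 to 5.14 for Rims1, come from second loci of the same symbols on scaffolds outside the chromosomes. In the whole table, 982 protein-coding symbols had both a chromosomal and a scaffold locus, and the chromosomal one was at 0 in every library for 611 of them (62.2%), against 19.8% of 19994 symbols with only a chromosomal locus. The low ranks of Rab3a and Rims1, 39 and 40 of 43, and their log2 changes of -0.07 and 0.04 are uncertain for that reason.

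The 4 vesicle recycling genes all had log2 changes above 0, where 51.7% of all tested loci did, and their median was 0.10. Of the 4, 3 were higher without overlap, against 10.8% of all tested loci. Synj1 (synaptojanin 1, the lipid phosphatase that helps uncoat endocytosed vesicles; chromosome 16, 90936092 to 91013727) had 50.2, 53.7 and 51.7 FPKM in WT against 57.0, 58.5 and 56.3 in Fmr1 KO. No libraries overlapped, at a log2 change of 0.14 (standard error 0.05, limma adjusted p = 0.221). Amph (amphiphysin, which recruits dynamin to curved membrane; chromosome 13, 18948142 to 19154032) had 57.9, 60.0 and 55.3 in WT against 60.9, 63.0 and 63.9 in Fmr1 KO, a log2 change of 0.12 (standard error 0.05, limma adjusted p = 0.314). Dnm1 (dynamin 1, the GTPase that cuts vesicles free; chromosome 2, 32308471 to 32353349) had 154, 156 and 144 in WT against 162, 162 and 157 in Fmr1 KO, again without overlap, and an unadjusted p of 0.104 in limma. Snap91 (the clathrin adaptor AP180) had a log2 change of 0.07 with overlapping libraries. All 4 kept a value above 0 under each of 16 alternative settings, most of which could not reverse the 3 without overlap.

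The summed FPKM of the 4 recycling genes was 357 to 375 in WT against 387 to 396 in Fmr1 KO. For Amph the unadjusted p in limma was above 0.05 without WT replicate 1 (0.0506), WT replicate 3 (0.147), Fmr1 KO replicate 2 (0.104) or Fmr1 KO replicate 3 (0.125), and for Synj1 it was 0.0563 without Fmr1 KO replicate 2.

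**Figure D4:**
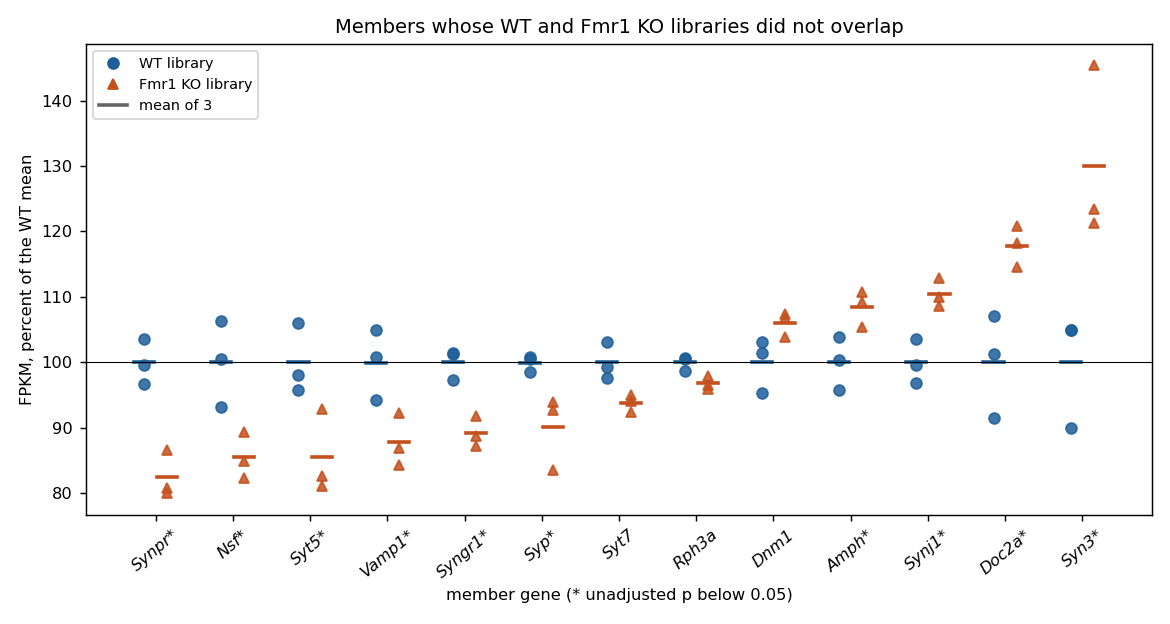
FPKM as a percentage of the WT mean (y axis) in each WT library (circles) and Fmr1 KO library (triangles) for the 13 tested members whose libraries did not overlap between genotypes (x axis), with horizontal bars for the mean of 3 libraries. The Fmr1 KO means run from 82.5% for Synpr to 130% for Syn3, and an asterisk marks an unadjusted p below 0.05 in limma.

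**Figure D5:**
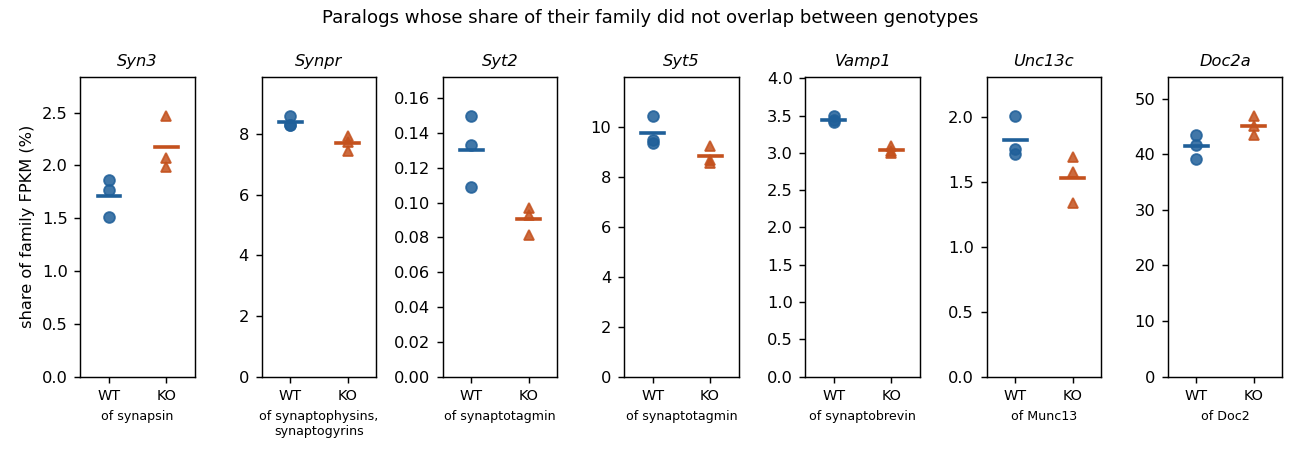
Share of each gene in the summed FPKM of its family (y axes, percent, each starting at 0) in the WT and Fmr1 KO libraries, with bars for the means, for 7 genes whose shares did not overlap between genotypes. Syn3 and Doc2a took a larger share in Fmr1 KO, and Synpr, Syt2, Syt5, Vamp1 and Unc13c a smaller one.

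Of 33 genes in 11 families, the shares of 9 did not overlap between genotypes and those of 24 did. Shares were not computed for other families. By FPKM itself, 10.8% of all tested loci were higher without overlap and 10.3% lower. In a family of a pair each share fixes the other, so Vamp1 with Vamp2 and Doc2a with Doc2b enter the 9 as mirror images. Syt5 was 9.35 to 10.4% of the summed FPKM of the 6 listed synaptotagmins in WT against 8.56 to 9.24% in Fmr1 KO, and Syt2 was 0.109 to 0.150% and 0.0816 to 0.0968%. Unc13c was 1.72 to 2.01% of Munc13 FPKM in WT against 1.34 to 1.69% in Fmr1 KO. Syt2 and Unc13c lie below the minimum of 1 FPKM. Overlapping shares were found in leading forms such as Syt11, Syn2, Cplx2, Unc13a and Bsn and in minor ones such as Sv2c, Cplx1, Unc13b, Syt4 and Syngr3. Shares in the RIM and Rab3 families rest on the uncertain levels of Rims1 and Rab3a. The share of Vamp2 was slightly higher, from 96.5 to 96.6% in WT to 96.9 to 97.0% in Fmr1 KO, which is the other side of the Vamp1 share.

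Outside the list, 95 further genes of release and recycling were found in the table, of which 82 were tested. Of these, 39 lay above 0 and 43 below, with a median log2 change of -0.02, and at an unadjusted p below 0.05 in limma 5 (6.10%) were higher and 6 (7.32%) lower, both near the share of all tested loci. No gene of them passed an adjusted p of 0.05. The lower ones with the smallest p were Syt12 (3.62, 3.30 and 3.25 FPKM in WT, 2.67, 2.45 and 2.55 in Fmr1 KO), Scamp1, a vesicle membrane protein (65.0, 68.8 and 65.7 against 62.5, 59.6 and 59.4), and Atp6ap2, an accessory protein of the vesicular proton pump (114, 105 and 102 against 99.4, 95.9 and 96.9). Their log2 changes were -0.39, -0.14 and -0.14.

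The higher ones with the smallest p were Dnajc6 (auxilin, which uncoats clathrin; 51.8, 56.4 and 55.6 FPKM in WT, 60.8, 59.7 and 62.6 in Fmr1 KO), Itsn1 (intersectin 1, an endocytic scaffold; 22.7, 27.3 and 26.4 against 27.2, 31.0 and 34.2) and Syt13 (23.6, 22.3 and 22.5 against 25.9, 25.0 and 24.6). Their log2 changes were 0.16, 0.27 and 0.14, and the libraries of Itsn1 overlapped. Of the 21 tested recycling genes outside the list, 15 lay above 0, against 51.7% of all tested loci, and the median log2 change of the 21 was 0.05. At an unadjusted p below 0.05, limma gave 3 with higher values (14.3%, against 6.99% of all tested loci) and 0 with lower values (against 7.77%). None of them passed an adjusted p of 0.05. Most values of the other groups outside the list also lay on the same side of 0. Of 10 tested active zone genes, 9 lay above 0, with a median log2 change of 0.06. Below 0 lay 8 of 10 proton pump genes, 8 of 12 other vesicle proteins and 11 of 17 SNARE proteins and regulators. So did 6 of 8 synaptotagmins and C2 proteins and 3 of 4 transmitter transporters. The counts of these further genes were sensitive to single libraries: the 5 higher were 2 without WT replicate 3 or without Fmr1 KO replicate 3, and the 6 lower were 3 without WT replicate 2 or Fmr1 KO replicate 2 and 2 without Fmr1 KO replicate 3.

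The vesicular transmitter transporters mark the transmitter of a terminal, and 4 of 7 were tested. Slc17a7 (VGLUT1, glutamate) had 286, 290 and 286 FPKM in WT against 280, 270 and 279 in Fmr1 KO, a log2 change of -0.06 with every Fmr1 KO library below every WT library. Slc32a1 (the GABA and glycine transporter) had -0.08 with overlapping libraries, and Slc17a6 (VGLUT2) had 0.16, also with overlap. Slc18a2 (the monoamine transporter) had 2.87, 2.36 and 2.62 FPKM in WT against 2.37, 2.01 and 1.72 in Fmr1 KO, a log2 change of -0.36 with overlapping libraries and an unadjusted p of 0.0358 in limma. Slc17a8 (VGLUT3), below the minimum and not tested, had 0.557 to 0.751 FPKM in WT and lay lower in every Fmr1 KO library, at 69.4% of the WT mean. Vamp3, Vamp8, Atp6v1e1 and Atp6v1g2 were listed at 0 in all libraries; a listed 0 in this table can be a failed estimate, and Atp6v1e1 is a subunit that cells use generally.

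Markers of the cells in the culture differed by genotype in both directions, none past an adjusted p of 0.05. The counts stand beside 6.99% of all tested loci that were higher and 7.77% that were lower at an unadjusted p below 0.05 in limma. Of 8 neuronal markers, 1 was higher (Map2) and 2 lower (Nefl and Nefm, the neurofilament subunits) at an unadjusted p below 0.05 in limma, and their summed FPKM was 1037 to 1107 in WT against 1097 to 1180 in Fmr1 KO. Of 7 excitatory markers, 1 was higher (Camk2a), with sums of 1005 to 1045 and 1034 to 1107. Among inhibitory markers, Dlx1 and Lhx6 were higher and Npy and Vip lower at an unadjusted p below 0.05 in limma, and counts and sums of that list are not given. Of 8 astrocyte markers, 2 were lower (S100b, Gja1), of 7 tested markers of the oligodendrocyte lineage 2 were higher (Olig2, Pdgfra), and the 3 tested microglia markers (C1qa, C1qb, C1qc) were all lower. The part of cell makeup in the differences of the release genes was not tested.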

How the data were processed

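The RNA of 3 WT and 3 Fmr1 KO libraries came from hippocampal cultures and had an integrity number above 8. Per the methods, adapters were clipped and reads trimmed, then aligned to GRCm38 (TopHat2) and assembled and compared (Cufflinks, Cuffdiff); versions, strandedness and library scaling remain unstated in the sources used here. The deposited values used are the authors' FPKM of each library. FPKM are normalized, and count models were not applied. The authors' group FPKM, fold changes, p-values and q-values were not used. Each of 47086 loci entered once; the 13195 that reached a mean of 1 FPKM in WT or Fmr1 KO were fitted as log2(FPKM + 0.1) with limma 3.58.1 (R 4.3.3), with genotype as the only term, a mean-variance trend and two-sided Benjamini-Hochberg adjusted p-values. The fit was tested on simulated data with independent noise at each locus and library. Those data lacked the pattern with transcript length, so they cannot show how well the p-values hold here. Tables used pandas 2.3.3 and scipy 1.17.1, and figures matplotlib 3.10.9.

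The members and lists were chosen with earlier results of these data known. Library values are given for members with an unadjusted p below 0.05 or without overlap between genotypes, for the highest member of each role and for members below the minimum; of the other release genes, the 3 lowest p-values in each direction are named. Levels of other members were added after their values were seen. Transcript lengths are those of the longest protein-coding GENCODE M21 transcript, for 97.4% of tested loci. Gene positions are RefSeq's on GRCm38. The alternatives were pseudocounts of 1 and 0.01, no minimum and a minimum of 5 FPKM, centred libraries, no trend, each library left out, a replicate block, and, for each library, its trend with genomic span or transcript length removed (lowess, span 0.3). Read depth is unknown, so precision rests on the spread between 3 libraries. A result among the cell type markers is not reported here.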

Additional observations from a re-analysis of the deposited data

How the results depend on the processing

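For the 13 members whose libraries did not overlap, 16 alternatives each gave 208 values. Of these, 195 kept their side of an unadjusted p of 0.05 in limma, 10 lost it and 3 passed it. No member reversed direction, but most alternatives could not reverse members picked for not overlapping. Only centring the libraries or removing a trend could have done so. Members at an adjusted p below 0.05 were 0 under every alternative except 1 with the trend with transcript length removed, a setting chosen after seeing the data, where the median of the members was -0.0232, with or without the replicate block. With each library left out, members higher at an unadjusted p below 0.05 were 2 to 5 and lower 4 to 8, the other release genes were 2 to 7 higher and 2 to 8 lower, and the median of the members was -0.01 to 0.02.

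Same-numbered WT and Fmr1 KO libraries deviated together with r of 0.243, 0.0577 and 0.0801. WT replicate 1 had -0.122 and -0.131 with Fmr1 KO replicates 2 and 3. Fmr1 KO replicate 1 had -0.119 and -0.152 with WT replicates 2 and 3. The remaining unlike pairs had 0.0781 and 0.0658. The highest r was thus that of both replicates 1, and what they may share was not tested. The labels do not say that the numbers pair samples, so the main fit left them unpaired. The replicate block gave 4 members higher and 7 lower, 8 other release genes higher and 11 lower, and 8 and 10 with transcript length also removed. Synpr then had an adjusted p of 0.0502, and 0.0515 with length removed.

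Loci of the whole table past an adjusted p of 0.05 were 35, but 15 without a minimum, 54 with a minimum of 5 FPKM, 21 without the variance trend, 65 with the replicate block, 95 with transcript length removed, 58 with both, and 14 to 20 with a library left out. The cause of these shifts was not tested. Depth is unknown and limits the members below 1 FPKM, Syt2 and Unc13c.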
